A study of Mus musculus with 56 samples.

Results

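The regulatory T cell (Treg) program is represented here by 10 genes, Foxp3, Ikzf2, Ikzf4, Ctla4, Tnfrsf18, Lrrc32, Nrp1, Itgae, Gpr83 and Nt5e, out of the 47937 genes listed in 2 deposited count tables. The genes were chosen by name, as Foxp3 and genes associated with Tregs, with earlier results of these data known, and were read in every subset and genotype. All 10 passed the filter on low counts in both tables. RNA was sequenced from CD4 T cells of spleen and lymph nodes of C57BL/6 mice, activated with anti-CD3, anti-CD28 and IL-2 and cultured under TH1 (IL-12, added IL-2, anti-IL-4), TH2 (IL-4, added IL-2, anti-IFN-γ), TH17 (IL-6, 5 ng/mL TGF-β, IL-1, anti-IFN-γ, anti-IL-4) or Treg (10 ng/mL TGF-β, added IL-2, anti-IFN-γ, anti-IL-4) conditions until day 4. WT libraries came from littermates without Cre, and libraries labelled Odc-/- or Dohh-/- from mice in which CD4Cre, a recombinase under the CD4 promoter, was combined with floxed Odc or floxed Dohh. CD4Cre is active from the thymus onwards, so that CD8 T cells that descend from the same precursors carry the deletion as well. Mice were typically 6 to 10 weeks old and of both sexes. The Odc table held 31 libraries, 4 per group except for 3 in TH2 labelled Odc-/- (library 1 of that group was not analysed here), and the Dohh table held 24, 3 per group. ODC makes the polyamine putrescine, and DOHH completes the amino acid hypusine on the translation factor eIF5A. The question was how far the Treg program depends on either enzyme in each polarizing condition.

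Foxp3 is the transcription factor that defines Tregs, and TGF-β with IL-2 induces it in naive CD4 T cells in culture. Helios (Ikzf2) and Eos (Ikzf4) are Ikaros family factors that act with FOXP3, and Helios is typical of Tregs made in the thymus. CTLA-4 and GITR (Tnfrsf18) are receptors that Tregs display at high levels and that other T cells acquire on activation. GARP (Lrrc32) and neuropilin-1 (Nrp1) hold or bind TGF-β at the cell surface, CD103 (Itgae) is an integrin subunit that binds E-cadherin and is itself a TGF-β target, CD73 (Nt5e) makes adenosine outside the cell, and GPR83 is an G protein-coupled receptor used as a Treg marker.

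Gene positions were taken from the GRCm38 (mm10) annotation. Foxp3 lies at chrX:7573644-7595245 on the plus strand, Ikzf2 at chr1:69531214-69687245 on the minus strand and Ikzf4 at chr10:128630843-128645991 on the minus strand. Ctla4 lies at chr1:60887000-60915832, Tnfrsf18 at chr4:156026164-156028895, Lrrc32 at chr7:98489283-98502181 and Nrp1 at chr8:128358604-128503363, all on the plus strand. Itgae lies at chr11:73090583-73147446, Gpr83 at chr9:14860210-14870789 and Nt5e at chr9:88327197-88372092, also on the plus strand. All are annotated as protein coding. Of the exon length of Foxp3, 45.5% is shared with Ccdc22, Flicr, Gm36995 and Ppp1r3f, and of that of Tnfrsf18, 27.2% with the antisense gene Gm16008. The neighbours of Foxp3 reached at most 8.26 CPM in any library. Ccdc22 is listed at 0 throughout the Dohh table (484 counts in the Odc table), and Ppp1r3f at 28 counts there against 737. The 0 of Ccdc22 is not read as a level. Foxp3 was at least 393 CPM in WT Treg of the Odc table but 2.13 to 11.9 CPM in its TH1 and TH2 libraries. In the Dohh table Foxp3 was 0.11 to 3.0 CPM in TH1 labelled Dohh-/- and 1.06 to 3.62 in TH2 of both genotypes. The values of these TH1 and TH2 groups are in or near the range of those neighbours and so are uncertain. Gm16008 reached at most 6.41 CPM, against at least 100 for Tnfrsf18.

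RefSeq promoters of build GRCm38.p6 were at hand for 6 of the 10 genes, with 2 start sites for Foxp3. The 250 bases before each of these 7 starts were searched on both strands for a forkhead motif (TGTTTAC), a STAT motif (TTCNNNGAA) and a RUNX motif (TGTGGT), which 3.17%, 7.02% and 14% of 32851 annotated promoters of the same length hold. The STAT letters occurred in 2 of the 7, in Foxp3 139 bases and in Tnfrsf18 99 bases before the start, overlapping no other motif, and the remaining 5 held none of the 3 motifs. Of these promoters, 4 are printed from 5′ to 3′ on the plus strand, with the STAT letters in capitals: Foxp3 (chrX:7580233-7580482) because it names the program, Tnfrsf18 (chr4:156026072-156026321) as the other gene with a match, and Nrp1 (chr8:128358823-128359072) and Gpr83 (chr9:14859960-14860209) because their messages moved in opposite directions in the Odc and the Dohh table.
Foxp3: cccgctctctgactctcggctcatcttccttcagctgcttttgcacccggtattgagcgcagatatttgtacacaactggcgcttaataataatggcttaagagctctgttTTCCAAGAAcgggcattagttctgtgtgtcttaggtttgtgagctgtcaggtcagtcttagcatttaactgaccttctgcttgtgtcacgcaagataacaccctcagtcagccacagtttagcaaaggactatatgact
Tnfrsf18: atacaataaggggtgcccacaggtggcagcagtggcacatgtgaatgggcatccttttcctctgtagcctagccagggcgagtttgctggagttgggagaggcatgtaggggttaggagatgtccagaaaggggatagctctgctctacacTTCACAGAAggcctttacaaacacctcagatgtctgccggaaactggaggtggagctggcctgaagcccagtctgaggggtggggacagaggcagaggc
Nrp1: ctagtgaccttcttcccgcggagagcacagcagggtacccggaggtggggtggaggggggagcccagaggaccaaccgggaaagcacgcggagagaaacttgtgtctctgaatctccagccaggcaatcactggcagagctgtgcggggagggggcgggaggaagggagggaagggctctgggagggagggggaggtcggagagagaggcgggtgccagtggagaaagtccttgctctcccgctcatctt
Gpr83: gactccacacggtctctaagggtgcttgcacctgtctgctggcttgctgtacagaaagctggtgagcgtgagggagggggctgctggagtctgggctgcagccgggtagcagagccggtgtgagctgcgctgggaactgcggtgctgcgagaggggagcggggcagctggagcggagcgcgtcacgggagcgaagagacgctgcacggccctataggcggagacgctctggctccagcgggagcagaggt
A match is a run of letters in a window and no evidence of binding.

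The 31 libraries of the Odc experiment held 5905374 to 9145214 counts each, and the 24 of the Dohh experiment 6572148 to 12576933. Values are given as CPM, library-size-scaled counts with trimmed mean of M values (TMM) normalization, and a gene is said to have been called, or to have risen or fallen, where edgeR's quasi-likelihood test gave an adjusted p under 0.05 and the fold change exceeded 2. The targeted messages did not follow the labels. Odc1 was 732 ± 88.9 (SD, n = 4) CPM in WT TH17 and 553 ± 65.0 (n = 4) in TH17 labelled Odc-/-, a log2 difference of -0.41, and differed by -0.20 to 0.26 in the other subsets. Dohh was higher, not lower, in the libraries labelled Dohh-/-, at 83.8 ± 8.31 against 37.8 ± 5.45 CPM in Treg (n = 3 each; log2 fold change 1.15), and was called higher in 3 of the 4 subsets. Counts over a whole gene include exons outside the floxed part, so these values do not test the deletion, and 47.5% of the Dohh exon length is shared with Gm48551. Groups are therefore named by their labels throughout.

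Markers of the labelled cell type and of other cells moved with genotype, and their part in the results was not tested. Cd4 was 22.0 to 79.7 CPM in the 12 libraries labelled Dohh-/- and 660 to 968 in their WT libraries, while Cd3e was 98.0 to 326 against 186 to 260. The 9 T cell markers, all found, summed to 1724 to 3457 against 4218 to 5219 CPM, and none was at 0. Trdc, the constant gene of the δ chain of the T cell receptor, was 281 to 675 against 14.2 to 32.9, and it made up nearly all of the γδ T cell sum (3 of 4 markers found), 289 to 686 against 14.2 to 34.9. Trac, the constant gene of the α chain, was lower, 71.7 to 169 against 296 to 523 CPM. In Treg labelled Dohh-/-, Cd8a was 241 ± 80.1 against 8.22 ± 2.89 CPM, whereas Cd8b1 was 14.5 ± 2.75 against 14.6 ± 1.85 (n = 3 each). The 6 CD8 and NK markers summed to 59.2 to 688 against 23.9 to 41.2 CPM, with Klrb1c and Ncr1 at 0 in WT TH17 and no marker at 0 in a group labelled Dohh-/-. The 10 myeloid markers reached 4593 CPM in the libraries labelled Dohh-/- against at most 28.1 in WT, mainly through Lyz2, which exceeded 1000 CPM in libraries 2 and 3 of both TH17 and Treg. Itgam is listed at 0 in all 24 libraries of that table, WT included, and was found in every library of the Odc table, so that its 0 is not read as a level. The 6 basophil and mast cell markers summed to 39.2 to 1050 against 0.972 to 3.92 CPM, and the 6 B cell markers to 5.0 to 55.4 against 5.38 to 61.8.

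**Figure D1:**
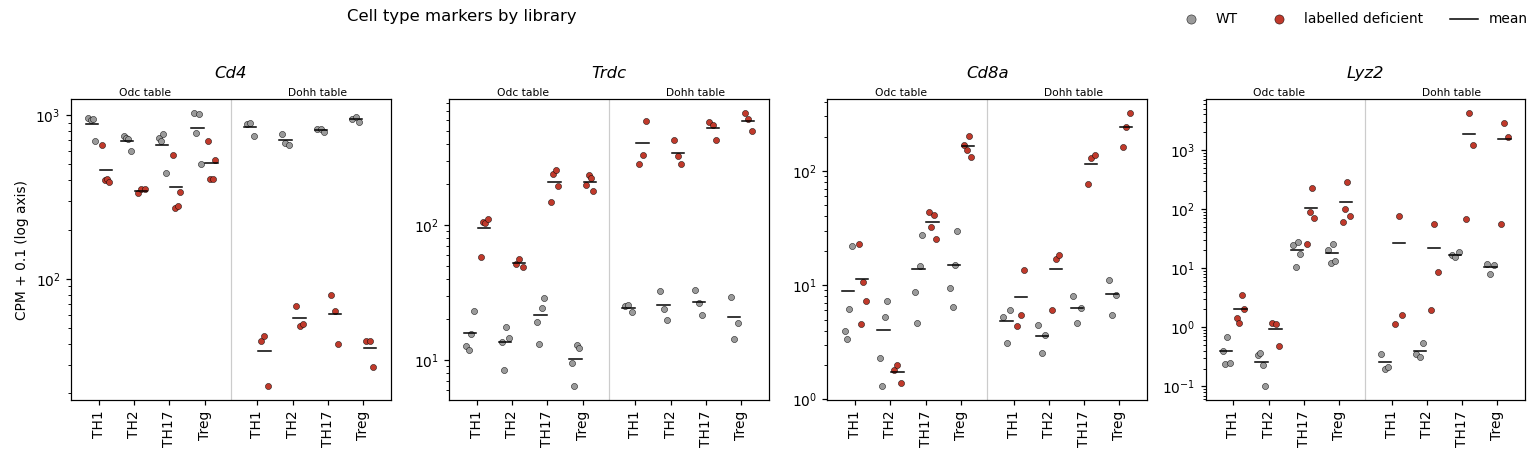
CPM plus 0.1 (log axis) of Cd4, Trdc, Cd8a and Lyz2 in each of the 55 libraries, by subset and table, with WT in grey, libraries labelled deficient in red and group means as bars. Cd4 in the 12 libraries labelled Dohh-/- lies at 22.0 to 79.7 CPM, below all their WT libraries, and Trdc lies above WT in both tables.

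In the Odc table markers moved with genotype as well, and their part in the results was not tested there either. Cd4 was 272 to 693 CPM in the libraries labelled Odc-/- and 441 to 1031 in WT. Within subsets the groups did not overlap in TH1 (389 to 655 against 691 to 962) and TH2 (334 to 353 against 604 to 741). They overlapped in TH17 and Treg, where WT library 4 was the lowest of WT (441 and 505). Library 1 was the highest of those labelled Odc-/- there (570 and 693). Cd4 was called lower in TH2 (-1.01 ± 0.26). Trdc was 49.2 to 254 against 6.3 to 28.9, and Trac 136 to 415 against 298 to 530, where the ranges overlapped. Cd8a in Treg was 164 ± 30.3 against 15.1 ± 10.4 (n = 4 each) with Cd8b1 at 16.6 ± 8.83 against 11.3 ± 0.926. Summed T cell markers were 2233 to 4411 against 3109 to 5012 CPM, and summed CD8 and NK markers 26.3 to 556 against 16 to 91.5. Myeloid markers summed to 15.4 to 359 against 6.11 to 42.9 CPM, basophil and mast cell markers to 11.3 to 287 against 1.24 to 14.8, and B cell markers to 11 to 560 against 3.3 to 105. In bulk RNA, fewer cells of a type and less message per cell cannot be told apart.

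In WT cells Foxp3 and several genes of the program were higher in Treg than in each other subset, TH17 being the other condition with TGF-β. Against TH1, 6 of the 10 genes were called higher in Treg in the Odc table (19.4% of all 13839 genes tested were called in either direction) and 6 in the Dohh table (15.5% of 13897). Against TH2 the counts were 7 (21.1%) and 6 (17.1%). Against TH17 they were 5 (14% of all genes) and 3 (7.07%), and none of the 10 was called lower in WT Treg than in any other WT subset. The counts against TH17 were the lower ones in step with the share of all genes, and the difference between counts was not tested. Foxp3 and Nrp1 were called in all 6 of these comparisons. Foxp3 in WT Treg exceeded WT TH1 by 6.25 ± 0.38 (log2 ± SE), TH2 by 7.09 ± 0.41 and TH17 by 4.79 ± 0.34 in the Odc table, and by 6.25 ± 0.56, 7.73 ± 0.61 and 3.69 ± 0.49 in the Dohh table, with adjusted p from 1.08e-13 to 3e-05.

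Not every gene of the program marked the Treg condition. Ctla4 and Tnfrsf18 were called in none of the 6 WT comparisons at the 2-fold limit, with log2 differences of -0.49 to 0.63 for Ctla4 and -0.87 to 0.94 for Tnfrsf18. Nt5e separated both TGF-β conditions from the others, since it was 419 ± 44.3 CPM in WT Treg and 232 ± 22.5 in WT TH17 but 6.1 ± 2.37 in WT TH1 and 3.01 ± 0.534 in WT TH2 (SD, n = 4 each). Itgae was likewise higher in these conditions, at lower levels and with a narrower gap, 15.1 ± 4.35 in WT Treg and 21.5 ± 5.02 in WT TH17 against 5.08 ± 1.56 in TH2 and 1.66 ± 0.80 in TH1. Per kilobase of exon, the scale on which genes can be compared, the order in WT Treg of the Odc table was Tnfrsf18 (446 CPM per kb), Ctla4 (273), Foxp3 (104), Nt5e (48.7), Lrrc32 (30.7), Ikzf4 (29.5), Nrp1 (11.6), Gpr83 (7.6), Ikzf2 (3.55) and Itgae (3.29).

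In libraries labelled Odc-/- genes of the program changed in both directions, whereas in libraries labelled Dohh-/- most calls were lower. Over the 4 subsets, 20 of 40 tests were called in the Odc table, 9 higher and 11 lower, and 31 of 40 in the Dohh table, 6 higher and 25 lower. In libraries labelled Odc-/-, 4 genes were called in TH1 (2 higher, 2 lower, with 21.4% of all genes called), 5 in TH2 (1 higher, 4 lower, 25.1%), 7 in TH17 (4 higher, 3 lower, 15.6%) and 4 in Treg (2 higher, 2 lower, 24%). The median log2 fold changes of the 10 genes were -0.53, -0.80, 0.50 and -0.02, and those of all genes tested lay between -0.002 and 0.073. In libraries labelled Dohh-/-, 8 were called in TH1 (1 higher, 7 lower, 29.1%), 4 in TH2 (1 higher, 3 lower, 25.9%), 9 in TH17 (2 higher, 7 lower, 31.4%) and all 10 in Treg (2 higher, 8 lower, 32.7%). Their medians were -1.34, -0.58, -1.68 and -1.58, beside 0.011 to 0.025 for all genes. A background of 21.4 to 25.9% corresponds to 2 or 3 of 10 genes, so that the 4 called in TH1 and Treg labelled Odc-/- and in TH2 labelled Dohh-/- stood only a gene or so above it. The 5 in TH2 labelled Odc-/- became 3 without its library 2, a count near the 25.1% of the fit with all libraries. No share of all genes is given for the fit without that library. Tested against the 2-fold change itself, 24 of the 51 calls were lost, all 6 of Tnfrsf18, 5 of 7 of Ctla4, 4 of 7 of Lrrc32, 4 of 6 of Nrp1, 2 of 6 of Itgae, 2 of 4 of Ikzf2 and 1 of 7 of Gpr83, and none of those of Foxp3, Ikzf4 and Nt5e.

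**Figure D2:**
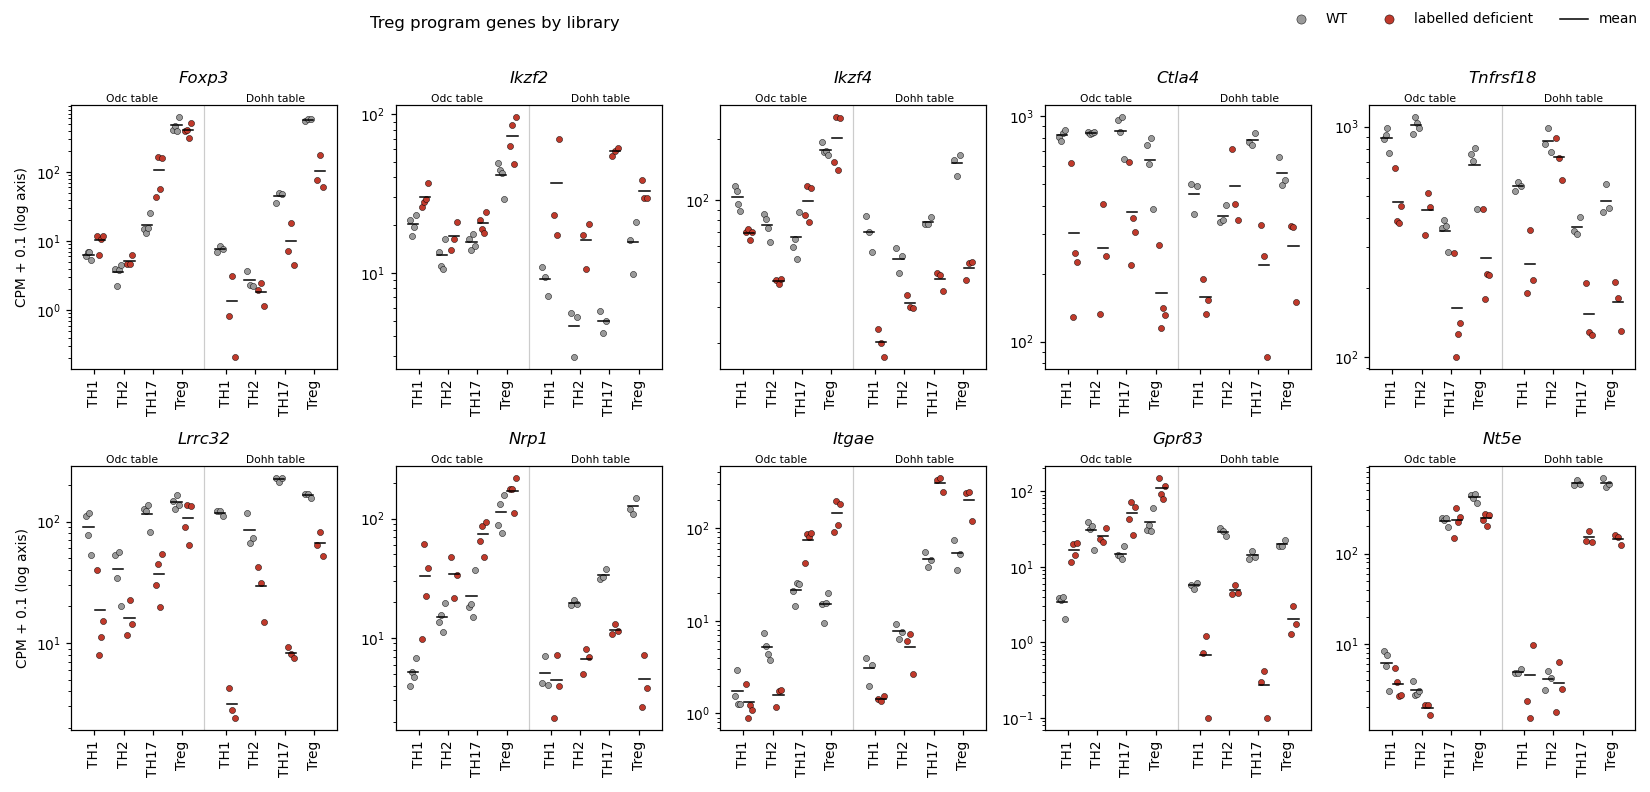
CPM plus 0.1 (log axis) of each of the 10 genes in all 55 libraries, by subset and table, with WT in grey, libraries labelled deficient in red and bars at the group means. Foxp3 in TH17 labelled Odc-/- lies at 44.1 to 165 CPM, above every WT TH17 library, and Foxp3 in Treg labelled Dohh-/- lies at 61.6 to 178 CPM, below every WT Treg library.

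Foxp3 rose in TH17 labelled Odc-/- and was not called in Treg of that genotype. The 4 WT TH17 libraries held 14.8, 13.1, 15.4 and 25.9 CPM and the 4 labelled Odc-/- held 44.1, 165, 56.7 and 160. All of the latter were above WT, libraries 2 and 4 the most, and the increase was 2.62 ± 0.32 (log2 ± SE, adjusted p = 1.31e-06). Under Treg conditions WT libraries had 410, 470, 393 and 638 CPM and those labelled Odc-/- 395, 406, 311 and 516. These groups overlapped, and the difference was -0.23 ± 0.29 (adjusted p = 0.499). TH17 labelled Odc-/- therefore remained below Treg of the same genotype, by 1.93 ± 0.30 on the log2 scale, where the WT difference was 4.79 ± 0.34. In TH1 and TH2 Foxp3 stayed at 12 CPM or less in every library and was not called (0.69 ± 0.39 and 0.55 ± 0.47).

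In the Dohh table Foxp3 fell in TH1, TH17 and Treg. WT Treg libraries had 554, 584 and 588 CPM, and Treg labelled Dohh-/- had 76.8, 178 and 61.6. The groups were well apart, and the log2 fold change was -2.45 ± 0.46 (adjusted p = 2e-04). In TH17 the values were 36, 50 and 47.8 CPM in WT and 6.99, 18.1 and 4.38 in the libraries labelled Dohh-/-, a change of -2.14 ± 0.48 (adjusted p = 0.00106). Library 2 was the highest of its group in both subsets, and without it the changes were -3.11 in Treg and -2.94 in TH17. In TH1 the libraries labelled Dohh-/- had 7, 19 and 1 reads, 27 in all, against 234 from WT, a ratio of WT to labelled of 7.03 (95% interval 4.71 to 10.9, counting error only), and the labelled libraries were within the range of Flicr (0 to 3.64 CPM in that table), which shares exons with Foxp3. The fitted TH1 change of -2.74 ± 0.65 was -4.12 without library 2 and -2.15 without library 3. In TH2 the values overlapped, at 1.06 to 2.34 against 2.13 to 3.62 CPM. The order of the subsets, Treg above TH17 above TH1 and TH2, stood in every genotype, and TH1 and TH2 labelled Dohh-/- overlapped.

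Helios and Eos, the Ikaros family partners of FOXP3, moved apart in the Dohh table. Ikzf2 rose in all 4 subsets labelled Dohh-/-, most in TH17, where WT libraries had 5.65, 4.09 and 4.85 CPM and the labelled ones 54.4, 58.9 and 61.4. These groups did not overlap, and the increase was 3.58 ± 0.42 (log2 ± SE, adjusted p = 1.18e-06). It rose by 2.01 ± 0.40 in TH1, where library 3 had 69.7 CPM and the others 23.0 and 17.2 (1.15 without library 3), and by 1.82 ± 0.41 in TH2. In Treg the change was 1.06 ± 0.38 (adjusted p = 0.0228), from 16, 9.72 and 20.8 to 38.5, 29.7 and 29.6 CPM. That call was lost without library 1 labelled Dohh-/- (0.93, adjusted p = 0.0738), without WT library 1 (1.03, 0.0673) or 2 (0.77, 0.126), without the 2 Lyz2-rich libraries (1.27, 0.079) and with no filter on low counts (1.05, 0.0663). In the Odc table Ikzf2 was not called in any subset. Its differences ran from 0.41 to 0.83, the last in Treg with adjusted p = 0.000266 and 48.7 to 96.6 CPM against 29.1 to 48.9.

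Ikzf4 fell in TH1 and Treg labelled Dohh-/-. Treg libraries held 158, 132 and 166 CPM in WT and 40.7, 49.2 and 49.7 in the labelled group, a change of -1.71 ± 0.16 (adjusted p = 4.85e-08), and TH1 changed by -1.79 ± 0.17. In TH2 and TH17 the labelled libraries were also all below WT, but the differences, -0.73 ± 0.16 and -0.93 ± 0.16, did not reach 2-fold. No subset was called in the Odc table, where the differences were -0.59 in TH1, -0.91 in TH2, 0.59 in TH17 and 0.18 in Treg.

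The activation-linked receptors CTLA-4 and GITR fell in both tables. Ctla4 fell in all 4 subsets labelled Odc-/-, by 1.44 ± 0.38 in TH1, 1.70 ± 0.42 in TH2, 1.20 ± 0.37 in TH17 and 1.96 ± 0.38 in Treg on the log2 scale. Tested against the 2-fold change itself, the Treg call held and the others were lost (adjusted p by edgeR's glmTreat 0.308 in TH1, 0.107 in TH2 and 0.881 in TH17), and the TH1 change was -2.06 without library 1. Treg values were 746, 611, 802 and 385 CPM in WT and 269, 115, 141 and 131 in the labelled libraries. Library 1 labelled Odc-/- was the highest of its group in TH1, TH17 and Treg, and no labelled library reached its WT group in any subset. In the Dohh table Ctla4 fell in TH1 (-1.51 ± 0.36), TH17 (-1.84 ± 0.36, or -1.24 without the Lyz2-rich libraries) and Treg (-1.06 ± 0.35, adjusted p = 0.0147). The Treg call was lost without library 3 labelled Dohh-/- (-0.82, adjusted p = 0.0753), without WT library 1 (-0.98, 0.0478, under the 2-fold limit) and without the 2 Lyz2-rich libraries (-0.81, 0.074). TH2 differed in sign, 0.44 ± 0.35, with 716, 408 and 347 CPM against 337, 346 and 401 in WT and an adjusted p of 0.314.

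Tnfrsf18 followed Ctla4 in most groups. Under Treg conditions it was 763, 706, 809 and 438 CPM in WT and 439, 178, 230 and 228 in libraries labelled Odc-/-, so that only library 1 reached the lowest WT value, and it fell by 1.34 ± 0.27 (adjusted p = 0.000135). It fell by 1.23 ± 0.29 in TH2 and by 1.11 ± 0.27 in TH17, and it differed by -0.91 ± 0.27 in TH1. The TH17 call rested on library 2 labelled Odc-/-, without which the change was -0.94. In the Dohh table it fell in Treg, from 427, 563 and 443 to 211, 180 and 130 CPM (-1.46 ± 0.24, adjusted p = 4.24e-05), in TH17 (-1.25 ± 0.24) and in TH1 (-1.12 ± 0.24). The TH1 change was under 2-fold without library 1 (-0.92) or at 2-fold without library 3 (-1.0) labelled Dohh-/-, and the TH17 change was -0.80 (adjusted p = 0.0655) without the 2 Lyz2-rich libraries. TH2 again did not follow, at 588 to 891 against 779 to 989 CPM (-0.24 ± 0.24).

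Lrrc32, which encodes the surface anchor for latent TGF-β, was lower in both tables. In TH1 of the Dohh table it was 123, 122 and 110 CPM in WT and 4.19, 2.68 and 2.31 in the labelled libraries, and in TH17 230, 213 and 227 against 9.22, 8.03 and 7.40. No value came near the other group, and the changes were -5.25 ± 0.33 (adjusted p = 3.16e-10) and -4.76 ± 0.31 (4.75e-10). In Treg, where 64.2, 81.2 and 52.4 CPM remained against 155 to 170 in WT, the change was -1.32 ± 0.26, and in TH2 -1.55 ± 0.27. In the Odc table Lrrc32 in TH1 was 112, 76.7, 117 and 52.9 CPM in WT and 39.8, 7.93, 11.2 and 15 with the label, library 1 being the highest, and it fell by 2.29 ± 0.41, or by 3.00 without that library. It fell as well in TH2 (-1.35 ± 0.45) and TH17 (-1.64 ± 0.39), and in Treg the groups overlapped at 63.5 to 136 against 127 to 164 CPM (-0.44 ± 0.37). The TH2 call was lost without library 2 labelled Odc-/- (-1.16, adjusted p = 0.0623).

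Nrp1, the semaphorin and TGF-β co-receptor, went up in the Odc table and down in the Dohh table. WT Treg libraries of the Dohh table had 119, 110 and 149 CPM, and Treg labelled Dohh-/- had 2.54, 7.06 and 3.71. The groups did not overlap, and the change was -4.82 ± 0.36 (log2 ± SE, adjusted p = 1.18e-09), or -5.66 without the Lyz2-rich libraries. It fell by 1.56 ± 0.32 in TH2 and by 1.52 ± 0.31 in TH17, and in TH1, at 2.04 to 7.10 CPM in both genotypes together, it was not called (-0.26 ± 0.36). In TH1 of the Odc table it went from 3.90, 5.11, 4.64 and 6.65 CPM in WT to 9.80, 61.6, 22.2 and 38.3. All libraries labelled Odc-/- were above WT, library 1 the least, and the increase was 2.70 ± 0.45 (adjusted p = 2.76e-05). TH17 rose by 1.73 ± 0.38 and TH2 by 1.18 ± 0.42 (adjusted p = 0.0173). The TH2 call was lost without library 2 labelled Odc-/- (0.87, adjusted p = 0.121) and without WT library 3 (1.04, 0.0546), and with no filter on low counts (1.14, 0.0534). In Treg, with 112 to 220 against 76.2 to 158 CPM, the difference was 0.59 ± 0.36 (adjusted p = 0.15).

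Itgae rose where TGF-β was present, in both tables. In Treg it was 15.2, 9.49, 15.4 and 20.1 CPM in WT and 91.2, 199, 107 and 181 in libraries labelled Odc-/-. The groups did not overlap, and the increase of 3.27 ± 0.28 (adjusted p = 7.27e-10), or 9.61-fold, was the largest of the 40 values of the Odc table. In TH17 it rose by 1.79 ± 0.26. Treg labelled Dohh-/- had 237, 248 and 119 CPM against 74.4, 34.9 and 52.7 (1.89 ± 0.31), and TH17 331, 352 and 243 against 54.7, 38.3 and 45.1 (2.75 ± 0.32). Cd8a was higher in these same 4 groups, with the Treg values given above. In TH17 it was 35.5 ± 8.39 against 13.8 ± 9.84 CPM with the Odc-/- label (n = 4 each). With the Dohh-/- label it was 114 ± 33.0 against 6.27 ± 1.7 (n = 3 each). Cd8b1 in TH17 was 15.1 ± 6.46 against 12.1 ± 1.46 with the Odc-/- label, but lower with the Dohh-/- label, 12.9 ± 1.4 against 18.3 ± 1.52. Cd8a was also 13.7 ± 6.75 against 3.46 ± 0.971 in TH2 labelled Dohh-/-, where Itgae was not called. CD103 is also carried by CD8 and γδ T cells. Negative selection of CD4 T cells, the isolation step in the labels, is meant to remove such cells, and their part in the Itgae counts was not tested. Without TGF-β Itgae was low, and it fell in TH2 labelled Odc-/- (-1.79 ± 0.47, 34 reads against 155) and in TH1 labelled Dohh-/- (-1.16 ± 0.46, adjusted p = 0.0404, 34 reads against 95). The last call was lost without any 1 of library 1, 2 or 3 labelled Dohh-/- or of WT library 1 or 3, with changes of -1.21 to -0.91 and adjusted p of 0.081 to 0.17. It was also lost with no filter on low counts (-1.19, adjusted p = 0.0838) and with only its 2 groups in the fit (-1.15, 0.0598).

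Gpr83, the receptor used as a Treg marker, gave the widest contrast between the tables. In the Dohh table, WT TH17 libraries with 438 reads in all (12.7, 16.2 and 13.3 CPM) faced labelled ones with 6 (0.203, 0.321 and 0 CPM), where a count of 0 allows up to 0.453 CPM. The ratio of WT to labelled was 67.5 (95% interval 30.7 to 185, counting error only), and the fitted change was -6.03 ± 0.54 (adjusted p = 2.87e-08). It fell as well in Treg, from 18.6, 18.5 and 22.6 to 1.21, 2.93 and 1.65 CPM (-3.35 ± 0.40), in TH2 (-2.59 ± 0.38) and in TH1 (-3.36 ± 0.49, 13 reads against 172). The TH1 change was -4.08 without library 2 and -2.73 without library 3, the TH17 change -6.72 without library 2, and the Treg change -4.06 without the Lyz2-rich libraries. The libraries labelled Odc-/- went the other way. Gpr83 in Treg was 30.2, 35.7, 29.6 and 59.5 CPM in WT and 151, 92.3, 77.6 and 118 with the label, all above WT, an increase of 1.5 ± 0.28 (adjusted p = 6.06e-05). It rose by 2.34 ± 0.37 in TH1 and by 1.78 ± 0.30 in TH17, and in TH2 the groups overlapped (-0.26 ± 0.31). The upstream windows of Nrp1 and Gpr83 printed above held none of the 3 motifs.

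Nt5e, the ecto-enzyme CD73, was called in the TGF-β conditions of the Dohh table, where it fell. WT Treg had 693, 542 and 585 CPM and Treg labelled Dohh-/- 162, 153 and 125 (-2.05 ± 0.38, adjusted p = 0.000131), and TH17 went from 573, 651 and 585 to 138, 180 and 135 (-2.0 ± 0.37). No labelled library reached WT in either subset. In Treg labelled Odc-/- all 4 libraries, at 204 to 271 CPM, were below the WT range of 360 to 459, but the difference of -0.78 ± 0.18 (adjusted p = 0.000779) was under 2-fold. TH17 groups overlapped, at 150 to 323 against 199 to 248 CPM (0.04 ± 0.18), and in TH1 and TH2 the gene stayed under 10 CPM throughout.

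**Figure D3:**
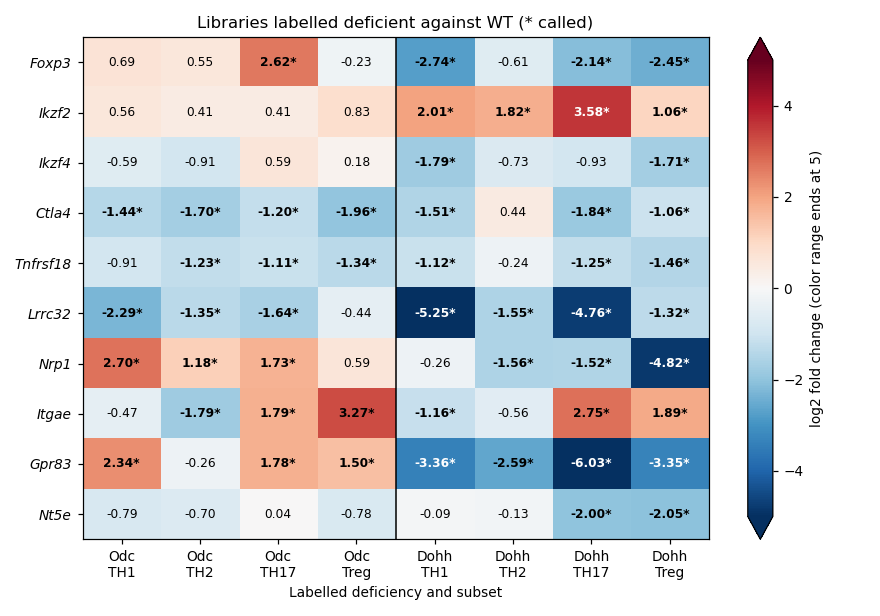
Log2 fold changes of the libraries labelled deficient against WT of the same subset and table, with asterisks at called values and blue for lower, red for higher. The Dohh columns are mostly blue apart from Ikzf2, Itgae in TH17 and Treg, and Ctla4 in TH2 (0.44, not called), while the Odc columns are mixed, from -2.29 (Lrrc32 in TH1) to 3.27 (Itgae in Treg).

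The Treg condition was next compared with the others within the labelled libraries. Against TH1, 8 of the 10 genes were called higher in Treg labelled Odc-/- (16.9% of all genes called), and against TH2 8 (18.4%). Against TH17 7 were called (8.89%), 6 higher and Ctla4 lower (-1.19 ± 0.38). Without library 4 of Treg labelled Odc-/- 4 were called, with no share of all genes given for that fit. With the Dohh-/- label 6 were called against TH1, all higher (10.4%), 6 against TH2 (10.7%) with Tnfrsf18 (-2.08 ± 0.25) and Gpr83 (-1.31 ± 0.41) lower, and 4 against TH17 (4.2%) with Nrp1 lower (-1.39 ± 0.34). Without the Lyz2-rich libraries 2 were called against TH17, with no share of all genes given for that fit. Nrp1, which WT Treg held 4.65 ± 0.35 above WT TH1 on the log2 scale, differed by 0.09 ± 0.36 between Treg and TH1 labelled Dohh-/-. Lrrc32, with a WT difference of 0.48 ± 0.26 between Treg and TH1, stood 4.41 ± 0.33 higher in Treg of the labelled libraries. Foxp3 was higher in Treg in all 6 comparisons, and these comparisons share the same Treg libraries within a genotype.

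**Figure D4:**
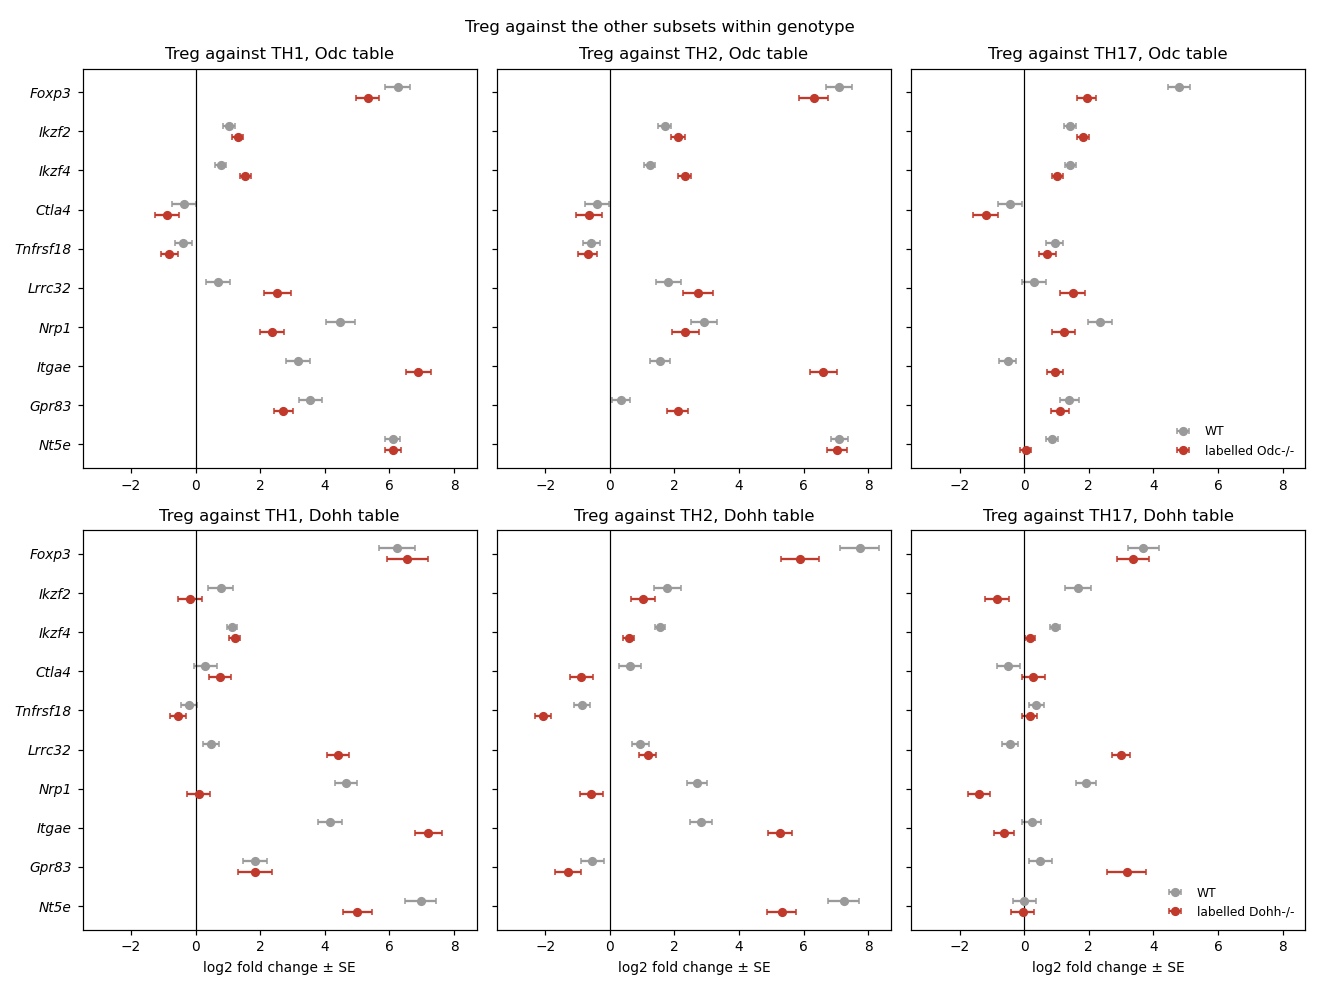
Log2 fold change ± SE of Treg against TH1, TH2 and TH17 within each genotype, Odc table above and Dohh table below, with WT in grey and libraries labelled deficient in red. The 2 points for Foxp3 against TH17 lie at 4.79 and 1.93 in the Odc table and at 3.69 and 3.38 in the Dohh table.

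The effect of genotype was tested for a difference between subsets. In the Odc table it differed for 5 of the 10 genes, Foxp3, Ikzf4, Nrp1, Itgae and Gpr83, with adjusted p from 2.33e-07 (Itgae) to 0.0282 (Nrp1), and 34.8% of all genes differed. With genotype and library number as a replicate block, 8 of the 10 differed. No share of all genes is given for that fit, so the 8 have no background beside them. For Ctla4 and Tnfrsf18, lower in every subset labelled Odc-/-, edgeR's quasi-likelihood test without the block found no difference between subsets (adjusted p = 0.622 and 0.778). The genes gained with the block are not named here. In the Dohh table the effect of genotype differed for 9 genes in the same test without the block, with adjusted p from 4.49e-07 (Lrrc32) to 0.0473 (Tnfrsf18), against 17.9% of all genes. Foxp3 was not called in that test (adjusted p = 0.259), but with genotype and library number as a replicate block all 10 genes differed, Foxp3 included. Without the Lyz2-rich libraries, 5 of the 10 differed. No share of all genes is given for either of these fits, so the 10 and the 5 have no background beside them.

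The Odc and the Dohh effects were also set against each other within each subset, each relative to its own WT. They differed for 6 genes in TH1 (18.6% of 14850 genes), 4 in TH2 (15.7%), 7 in TH17 (21.4%) and 6 in Treg (26.2%). Gpr83 and Nrp1 differed in all 4 subsets, by 2.34 to 7.73 and by 2.75 to 5.38 on the log2 scale, with the Odc effect the higher. The Foxp3 effects differed by 4.68 ± 0.56 in TH17 (adjusted p = 6.16e-08), 3.43 ± 0.75 in TH1 and 2.18 ± 0.51 in Treg, but not in TH2 (1.18 ± 0.79, adjusted p = 0.344). The Dohh effect was the higher for Ikzf2, by 1.39 to 3.22 in TH1, TH2 and TH17, and for Ctla4 in TH2. For Tnfrsf18 no difference was found in any subset (-0.97 to 0.18), and for Ctla4 one was found in TH2 alone (-2.12 ± 0.58, adjusted p = 0.00882). Of the 11590 genes that reached 500 counts in all with Odc, 275 stood at 5 or fewer with Dohh, for which no reason was tested, and levels were compared only within a table.

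**Figure D5:**
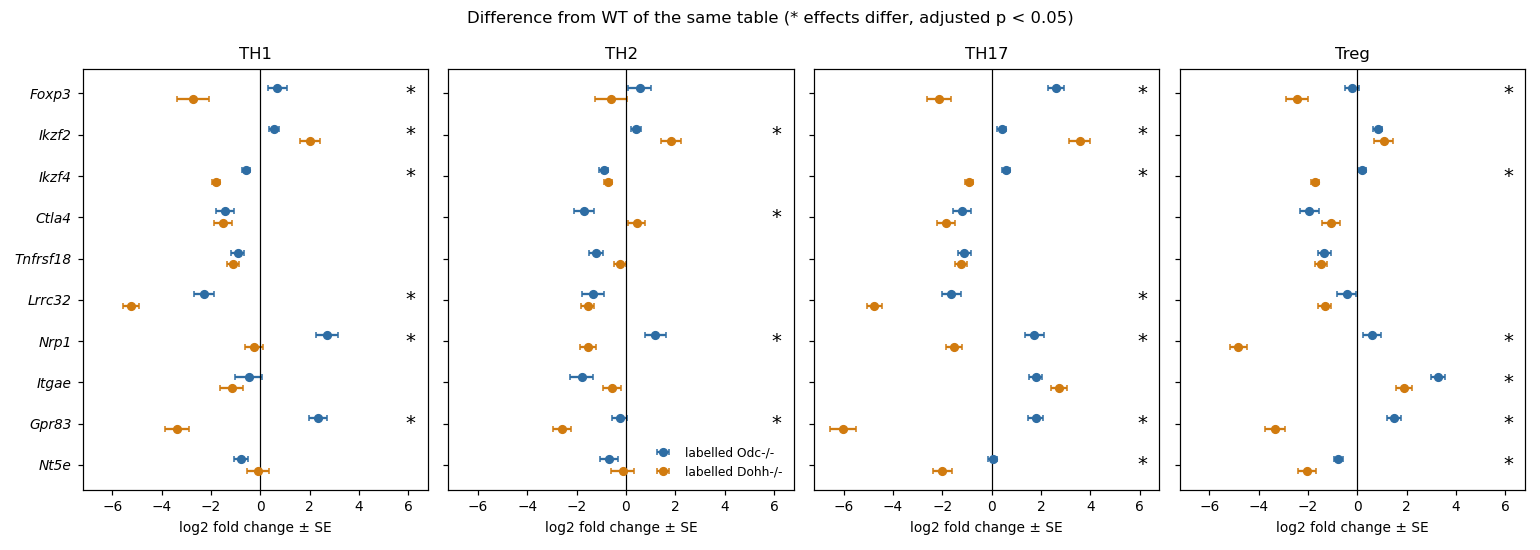
Log2 fold change ± SE against WT of the same table for libraries labelled Odc-/- (blue) and Dohh-/- (orange) in each subset, with an asterisk where the effects differed at an adjusted p under 0.05. Gpr83 in TH17 has the widest gap, 7.73, and Tnfrsf18 bears no asterisk in any subset.

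Of 23 genes known to regulate Foxp3, those called were mostly lower. In libraries labelled Odc-/-, 5, 3, 2 and 6 were called in TH1, TH2, TH17 and Treg, of which 1, 1, 0 and 0 were higher, and with the Dohh-/- label 10, 8, 10 and 11, of which 2, 1, 1 and 0 were higher. All genes were called at 21.4, 25.1, 15.6 and 24% and at 29.1, 25.9, 31.4 and 32.7% in these comparisons, so that the Odc counts were near or below the background. Their median log2 fold changes lay between -0.98 and -0.26, beside -0.002 to 0.073 for all genes. Ets1, a factor that binds the Foxp3 locus, fell in all 8 comparisons (-1.55 to -1.16), from 551 ± 70.7 to 233 ± 45.5 CPM in Treg of the Dohh table. Bach2, a repressor that favours Treg over effector fates, fell in 6 of 8, by 3.47 ± 0.26 in Treg labelled Dohh-/-. Nr4a3, a nuclear receptor induced by T cell receptor signals, rose in TH1 and TH2 of both tables (1.39 to 1.94) and fell in Treg of both (-1.02 and -1.86). In TH1 of the Dohh table its groups overlapped, at 17.2 to 104 CPM with the label against 14.3 to 18.0 in WT.

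Other genes associated with Tregs, 28 in all, changed in both directions, 9, 12, 9 and 11 in the Odc table and 12, 13, 14 and 19 in the Dohh table, with 5, 6, 6 and 6 and then 5, 8, 7 and 11 of them higher, beside the same shares of all genes (15.6 to 25.1% and 25.9 to 32.7%). Il1rl1, the IL-33 receptor ST2, rose in all 8 comparisons, in Treg from 1.64 ± 0.741 to 21.9 ± 5.24 CPM with the Odc-/- label (n = 4) and from 0.632 ± 0.462 to 38.3 ± 8.40 with the Dohh-/- label (n = 3). Klrg1, a receptor of late effector T cells, NK cells and some Tregs, was called higher in all 8 but stayed at 0.971 ± 0.940 CPM in Treg labelled Odc-/- and 0.46 ± 0.337 in Treg labelled Dohh-/-, where WT was at 0 in every library. Penk, the enkephalin precursor, rose in 7 of 8, by 7.30 ± 0.65 in TH17 labelled Dohh-/-. Ecm1, a secreted matrix protein, fell in all 8 (-4.72 to -1.41). ST2 is also carried by basophils and mast cells, which the same selection is meant to remove and whose markers moved with genotype as given above, and their part in the Il1rl1 counts was not tested.

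Of 7 genes that FOXP3 is known to repress, 1 to 3 were called in each comparison (medians -1.0 to 0.21). Beside the shares of all genes these counts ranged from 3 of 7 in TH17 labelled Odc-/-, where 15.6% of all genes were called, to 1 of 7 in Treg labelled Dohh-/-, where 32.7% were. Il2 rose in TH1 (4.60 ± 0.74) and TH2 (2.77 ± 0.53) labelled Odc-/- and fell in TH17 labelled Dohh-/- (-1.46 ± 0.56). Its levels were low. In TH1 of the Odc table it was 0 to 0.591 CPM in WT and 0.905 to 18.0 with the label, so the size of that change is uncertain. TH2 had 1.22 to 7.43 CPM in WT and 16.4 to 40.4 with the Odc-/- label. TH17 of the Dohh table had 2.45 ± 0.601 CPM in WT and 0.865 ± 0.499 with the label. Tcf7, a factor of naive and memory T cells, fell in all 4 subsets labelled Dohh-/- (-4.08 to -2.59) and was not called in the Odc table. Satb1, a chromatin organiser that stands on this list and among the Foxp3 regulators, fell in TH17 of both tables (-1.47 and -1.54) and in TH1 and TH2 labelled Dohh-/-.

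The genes whose log2 CPM ran most nearly parallel to Foxp3, by the lower of the 2 correlations over the 31 libraries of the Odc table and the 24 of the Dohh table, were Pkhd1l1 (r = 0.93), Cux1 (0.908), Tnfrsf13b (0.905), Foxp1 (0.897) and Chd3 (0.889), among 12924 genes tested in both. For Ikzf2 they were Ppm1h (0.867), Cmtm7 (0.82), Hsd11b1 (0.82), Gm20559 (0.82) and Tnfsf10 (0.806). No other gene of the program was eligible for these lists. The libraries behind each r share subsets, genotypes and library numbers, so the values are descriptions.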

How the data were processed

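Raw counts per gene, which the authors deposited as 1 table for the Odc and 1 for the Dohh experiment, were used for 55 libraries. Polyadenylated RNA had been made into stranded libraries, and the submitters' processing notes name STAR, featureCounts, DESeq2, deepTools and mm10. The annotation release and strand setting of the counting are not given in the sources used here. The labels describe CD4 selection and the study's methods naive CD4 T cells.

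Low genes were removed by filterByExpr given the 8 groups of a table, and counts were scaled by TMM to CPM (counts relative to library size) and fitted with edgeR's robust quasi-likelihood model (edgeR 4.0.16, R 4.3.3), with 1 mean per group and no block. P-values were adjusted by Benjamini-Hochberg over all genes tested, and a call needed an adjusted p under 0.05 and a fold over 2. Interactions, and the Odc against the Dohh effect in a joint fit of 16 groups, were called at an adjusted p under 0.05. SE is the log2 fold change divided by the root of F. The fitting was tested on simulated data. Ratios of summed counts carry exact 95% intervals, which cover counting error only, as does the floor of 3 counts for a value of 0. Exon lengths and positions came from GENCODE vM21, promoters from RefSeq. Where nothing says that replicates came from separate animals, p-values measure only the spread between libraries. Named genes of the lists were those called in 7 or 8 of 8 comparisons and the 3 with the largest mean absolute log2 fold change. Genes most like Foxp3 or Ikzf2 were the 5 with the highest lower Pearson r of the 2 tables. The members and lists were chosen with earlier results of these data known. Alternatives were DESeq2 1.42.0, RLE scaling, other filters, glmTreat, fits of 2 groups, a replicate block and leaving out libraries.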

Additional observations from a re-analysis of the deposited data

Results flagged for a closer look

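Of 70 groups of 4 libraries examined, 3 held a library far from the others, where chance gives about 1 in 20. Ctla4 was 269 CPM in library 1 of Treg labelled Odc-/- and 115 to 141 in the others. Itgae was 41.7 CPM in library 1 of TH17 labelled Odc-/- and 80.9 to 87.9 in the others. Itgae was also 2.84 CPM in library 2 of WT TH1 of the Odc table and 1.16 to 1.44 in the others.

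The effect of genotype differed between subsets by edgeR's quasi-likelihood interaction test in the Odc table for Foxp3 (adjusted p = 0.000124), Ikzf4 (0.000131), Nrp1 (0.0282), Itgae (2.33e-07) and Gpr83 (0.000672). In the Dohh table it differed for Ikzf2 (adjusted p = 0.0155), Ikzf4 (0.0027), Ctla4 (0.00941), Tnfrsf18 (0.0473), Lrrc32 (4.49e-07), Nrp1 (7.41e-06), Itgae (2.47e-05), Gpr83 (0.00759) and Nt5e (0.0163).

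The Odc effect minus the Dohh effect, on the log2 scale, passed the test in TH1 for Foxp3 (3.43), Ikzf2 (-1.47), Ikzf4 (1.19), Lrrc32 (2.94), Nrp1 (2.95) and Gpr83 (5.69). In TH2 it passed for Ikzf2 (-1.39), Ctla4 (-2.12), Nrp1 (2.75) and Gpr83 (2.34). In TH17 the differences were 4.68 for Foxp3, -3.22 for Ikzf2, 1.47 for Ikzf4, 3.06 for Lrrc32, 3.19 for Nrp1, 7.73 for Gpr83 and 1.97 for Nt5e. In Treg they were 2.18 for Foxp3, 1.85 for Ikzf4, 5.38 for Nrp1, 1.34 for Itgae, 4.82 for Gpr83 and 1.23 for Nt5e. The experiments were separate, so that table and genotype cannot be told apart beyond each table's own WT.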

How the results depend on the processing

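The 51 called changes of the 10 genes kept their direction in all 788 values recomputed under the alternatives, and 741 were still called. Of the 47 lost calls, 24 came with glmTreat, which tests against the 2-fold change itself, 16 with 1 library left out, 3 with no filter on low counts (Nrp1 in TH2 labelled Odc-/-, Itgae in TH1 and Ikzf2 in Treg labelled Dohh-/-), 3 without the Lyz2-rich libraries and 1 with only 2 groups in the fit (Itgae in TH1 labelled Dohh-/-). With glmTreat the counts called in libraries labelled Odc-/- were 3 in TH1, 0 in TH2, 3 in TH17 and 2 in Treg. With the Dohh-/- label they were 5 in TH1, 1 in TH2, 7 in TH17 and 6 in Treg. No share of all genes called by glmTreat is given beside these counts. For the 0, 2 genes had an unadjusted p under 0.05 in that test, and edgeR's main test and DESeq2 called 5 each. An adjusted p alone gave 8 in TH1 labelled Odc-/-, and no share of all genes is given without the fold limit. Leaving out 1 library gave 3 to 5 calls in TH2 labelled Odc-/- (3 without its library 2) and 4 to 8 between Treg and TH17 labelled Odc-/- (4 without library 4 of Treg). Without the Dohh-/- libraries with Lyz2 above 1000 CPM, a choice made after seeing the data, 2 genes were called between Treg and TH17 and 5 effects differed between subsets. The cause of these shifts was not tested. No share of all genes is given for DESeq2 or for the fits with libraries left out, so their counts have no background beside them. Low counts limit Foxp3 in TH1 and Gpr83 in TH1 and TH17 of the Dohh table (6 reads in TH17 labelled Dohh-/-), Itgae in TH1 of both tables and TH2 labelled Odc-/-, and Nt5e in TH2 labelled Odc-/- (43 reads against 91).

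With a replicate block of genotype and number, 8 genotype effects differed between subsets in the Odc table, against 5 without it, and 10 in the Dohh table against 9. No share of all genes is given for the blocked fits. Libraries of the same subset and number in both genotypes had a mean correlation of deviations of 0.046 over 15 pairs in the Odc table and 0.013 over 12 pairs in the Dohh table, with 7 of 15 and 1 of 12 pairs over 0.1 (9 of 45 Odc pairs with different numbers). Not every pair deviated together, and across genotypes the number was not taken as a pairing. Within a genotype, libraries of the same number in different subsets deviated together, with a mean correlation of 0.292 in the Odc table (44 of 45 pairs over 0.1) and 0.18 in the Dohh table (28 of 36), and 87 of 90 and 54 of 72 matches were best with the library's own number, a hint from the data and not from the labels. The fits of Treg against other subsets and of the interactions carry no block. For deficient against WT libraries the block tried was library number alone, the pairing across genotypes not taken above. It changed no count of genes called there. A block of genotype and number was not fitted for those comparisons. In Treg against other subsets the block of genotype and number moved the counts by at most 1 gene.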
